A study of Hevea brasiliensis with 6 samples.

Results

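The change in the leaf transcriptome of the rubber tree clone ‘Reken501’ between 1 h and 24 h of cold was followed by setting 1 library against 1 other, the 24 h library against the 1 h library. They are 2 of the 6 libraries of the series and were chosen by their labels. ‘Reken501’ is the clone that the study describes as sensitive to cold, and ‘93-114’ is the tolerant clone grown beside it. All plants were 1 year old and had developed 2 extension units, the flushes of leaves that a young rubber tree puts out. Leaves of 3 plants were pooled for each library, from unchilled controls and after 1 h and 24 h at 4 °C, in both clones. Each condition therefore has 1 library, and no difference between 2 libraries has a check by replicates.

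When a plant is chilled, the first genes to respond are mostly regulators. The best known are the CBF/DREB transcription factors of Arabidopsis, which bind a short element in the promoters of cold-responsive genes. The products of those target genes, among them protective proteins and enzymes that adjust membranes, sugars and antioxidants, accumulate later. A comparison of an early with a late time in the cold addresses the passage from the first to the second of these phases.

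Measurements were made on unigenes, which are transcript sequences assembled from the reads. The 4 deposited tables list 167072 of them, from 150 to 16715 bases long with a median of 404 bases. Of these, 68027 are named as contigs of 16131 clusters of similar sequences and 99045 stand alone. The tables pair no unigene with a gene name, and 0 IDs matched the 50196 genes of the RefSeq annotation, so gene functions, pathway lists and leaf markers were not analysed here. The counts of fragments, each a read pair, added up to 21.4 M in the 1 h library and 21.6 M in the 24 h library, and to between 20.4 M and 21.9 M in the other libraries. The libraries of ‘93-114’ in the cold stood apart from the rest, since 145 and 156 unigenes held 50% of their fragments, against 445 to 788 in the other libraries.

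From 1 h to 24 h of cold, far more unigenes of ‘Reken501’ rose than fell. Of 159946 unigenes with a fragment in either library, 4816 were raised and 2673 were lowered, or 3.01% and 1.67% of those tested and 4.68% in either direction. A unigene was called when its ratio, relative to the library totals and after adding 0.5 fragments, changed at least 2-fold, and when an exact binomial test, two-sided and conditional on the summed fragments, gave a Benjamini-Hochberg adjusted p of 0.001 or less. This test compares these 2 libraries and holds no spread between plants. Of the called unigenes, 64.3% were raised, with a 95% Wilson interval of 63.2 to 65.4 that treats unigenes as independent.

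As called, the rises were also larger than the falls, though the sizes were not compared at like abundance. The median raised unigene had a log2 ratio of 2.39 (quartiles 1.63 and 3.68), a 5.26-fold rise, and the median lowered unigene had a log2 ratio of -1.50 (quartiles -2.07 and -1.20), a 2.83-fold fall. The ratio was 3 or more on the log2 scale, in either sense, for 1708 raised unigenes (35.5%) and for 252 lowered ones (9.43%). The raised unigenes were mostly rare at 1 h, with a median of 11 fragments, and had a median of 57 fragments at 24 h. The lowered unigenes started from a median of 98 fragments and reached 37. Together, the raised unigenes took 1.75% of the fragments of the library at 1 h and 6.29% at 24 h, while the lowered unigenes took 3.67% and 1.32%.

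The unigenes as a whole were centred near 0. A mean of 10 fragments or more was found for 90795 unigenes, whose median log2 ratio was -0.012, and 51.4% of the ratios were below 0. That median is the ratio of a unigene with equal counts in both libraries, because the 24 h library was slightly larger. Unigenes with equal counts are among the 51.4%, so this share shows no majority of falls. The middle 50% of the ratios lay between -0.47 and 0.51. Other ways of scaling the libraries, by edgeR's TMM factors, DESeq2's size factors or totals without the 100 most-read unigenes, moved each log2 ratio by at most 0.026.

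The balance of rises and falls depended on how abundant a unigene was. Between 10 and 30 fragments on average, 4.27% of 41992 unigenes were raised and 1.10% were lowered. Between 30 and 100 fragments the shares were 6.37% and 4.37% of 28082 unigenes. The lead of the raised unigenes was absent from 100 to 300 fragments, with 4.74% raised and 4.89% lowered of 12841, and from 300 to 1000 fragments, with 3.43% and 4.05% of 5680. Among the 199 unigenes with at least 10000 fragments, 11 were raised and 4 were lowered. The surplus of rises thus lay mainly among unigenes with few fragments. The classes are set by the mean of the 2 libraries, so a unigene that rose from near 0 is placed in a class by its 24 h level.

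**Figure D1:**
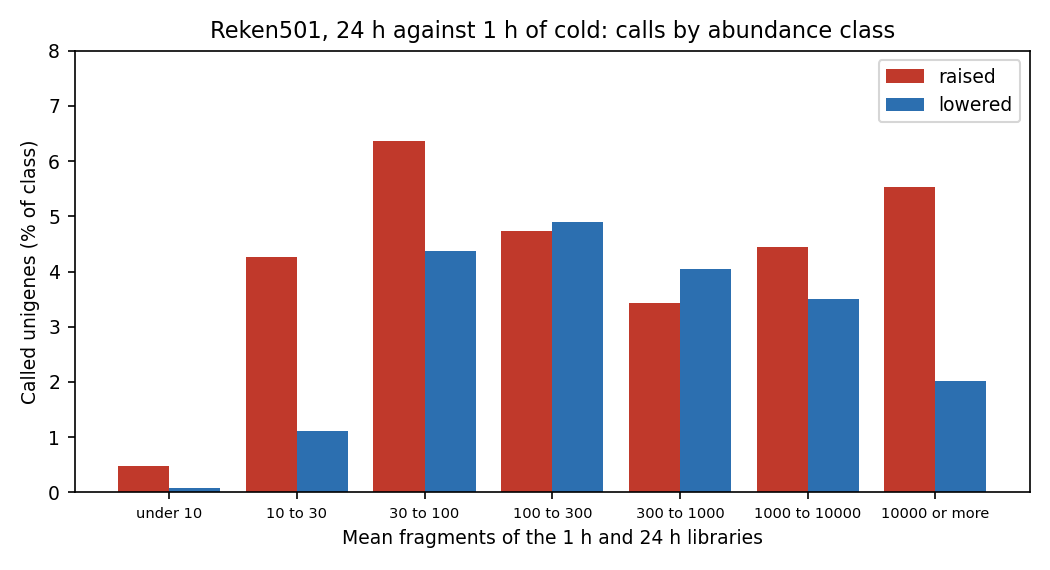
Share of unigenes raised (red) and lowered (blue) from 1 h to 24 h of cold in ‘Reken501’, in % of each class of mean fragments in these libraries. The red bar is well above the blue one from 10 to 30 fragments (4.27% against 1.10%) and slightly below it from 100 to 300 (4.74% against 4.89%).

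The spread of the ratios was wider than counting error alone. The quartile distance and the standard error below are unlike measures, since counting alone sets quartiles further apart than its standard error. From 100 to 300 fragments, the quartiles of the log2 ratio were 0.65 apart, and the median standard error from counting was 0.17. From 1000 to 10000 fragments they were 0.49 apart, with a counting error of 0.050. In that class 61.2% of 2001 unigenes passed the adjusted p alone, against 4.45% raised and 3.50% lowered once a 2-fold change was also asked. With 1 pool a side, the part of this spread that belongs to differences between plants and the part that belongs to the cold cannot be told apart. Allowing for a spread between pools changed the numbers of calls strongly: with a coefficient of variation of 0.2 taken as given, the exact test of edgeR left 1091 raised and 187 lowered unigenes, and with 0.4 it left 34 and 13.

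Some of the raised unigenes were not read at all after 1 h. In all, 13025 unigenes had 0 fragments at 1 h and at least 1 at 24 h, and 5678 showed the reverse. At least 10 fragments at the other time were counted on 1548 of the former and 259 of the latter. Of the raised unigenes, 634 had 0 fragments at 1 h, and they had from 15 to 761 fragments at 24 h, with a median of 19. A count of 0 was taken to allow up to 3 fragments per library, and the 24 h count was taken as exact. On that basis these were at least 4.96-fold to at least 252-fold higher at 24 h. Only 65 lowered unigenes had 0 fragments at 24 h, from between 15 and 470 fragments at 1 h. The fold limits cover the counting error of the 0 only. They leave out that of the other count, which would lower them, and any spread between plants.

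The raised unigenes with no fragment at 1 h were shorter, and less often contigs of a cluster, than all raised unigenes. Those with 0 fragments at 1 h had a median length of 324 bases, and 128 of the 634 (20.2%) were contigs, against 39.3% of the raised and 40.7% of the listed unigenes. A count of 0 is itself more likely for a short sequence. Raised unigenes as a whole had a median length of 631 bases, lowered ones 729 bases, and all those that averaged 10 fragments or more 782 bases. A longer sequence collects more fragments, so that short unigenes are read less deeply at the same level. Among unigenes with that mean, the share that was raised was 4.24% from 150 to 300 bases, 5.90% from 300 to 1000, 3.95% from 1000 to 3000 and 5.77% from 3000 bases, whereas the share lowered was 2.20%, 3.50%, 2.75% and 1.35%. The longest unigenes were therefore lowered least often, and raised about as often as those from 300 to 1000 bases. They were shifted as a class, with a median log2 ratio of 0.10, against -0.012 in each shorter class.

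The 4 unigenes given by ID were picked by a rule of size, among called unigenes with at least 500 fragments in the higher library and at least 10 in the lower one: the largest ratio and the largest change in fragments per M, in each direction. The rule had 271 raised and 248 lowered unigenes to choose from. The intervals of their folds are exact binomial ones at the 95% level, and they cover counting error only.

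Unigene30273_All, of 1991 bases, had the largest rise in ratio. Its fragments in ‘Reken501’ numbered 14 in the control, 13 at 1 h and 3131 at 24 h, which was an FPKM (fragments per kilobase and per M fragments) of 0.331, 0.305 and 72.8. The 24 h level was 239-fold above the 1 h level (140 to 449). In ‘93-114’ it had 6, 15 and 1329 fragments, so that only the 24 h libraries were high, in both clones.

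CL2819.Contig2_All, of 1965 bases, was among the most-read unigenes and gained the most fragments per M. It had 71229 fragments at control, 52110 after 1 h and 121552 after 24 h, a 2.31-fold rise (2.29 to 2.34) that took it from 0.243% to 0.563% of the library. Its level in the control lay between those of the cold libraries. In ‘93-114’ it had 72327, 126045 and 188164 fragments, and rose 1.45-fold over the same interval, less than the 2-fold asked for a call. The only other contig of its cluster had at most 13 fragments in any library.

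CL3590.Contig2_All, of 3199 bases, had the largest fall in ratio. It had 1620 fragments at control, 3290 after 1 h and 25 after 24 h, a 133-fold fall (89.7 to 205). In ‘93-114’ it had 2, 0 and 0 fragments. A second contig of this cluster, 4352 bases long, went the other way, with 6726, 646 and 14874 fragments at control, 1 h and 24 h in ‘Reken501’. The third contig, of 183 bases, fell from 167 to 2 fragments. Their sum was 8404, 4103 and 14901 fragments in the 3 libraries of ‘Reken501’ and at most 6 in those of ‘93-114’, so the sum over the cluster rose from 1 h to 24 h while this contig fell.

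Unigene2081_All, of 884 bases, lost the most fragments per M. Its fragments in ‘Reken501’ numbered 42519 in the control, 29136 at 1 h and 10787 at 24 h, a 2.72-fold fall (2.66 to 2.78) between the cold libraries. The level thus stepped down at both times. In ‘93-114’ it had 37436, 6042 and 12446 fragments, lowest after 1 h, and its log2 ratio of 24 h to 1 h, 0.997, was just under the limit for a call.

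**Figure D2:**
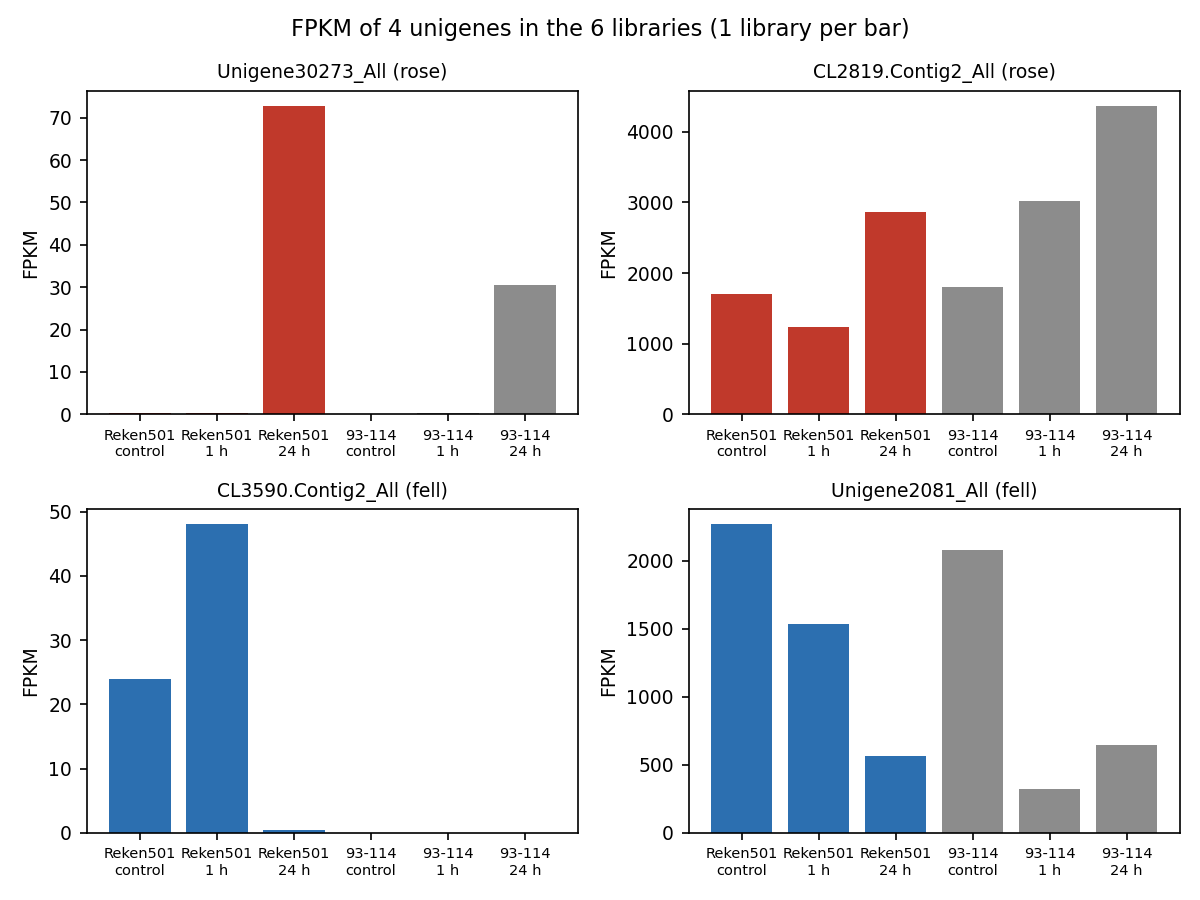
FPKM of the 4 unigenes in each of the 6 libraries, 1 bar per library, with ‘Reken501’ in colour (red for those that rose, blue for those that fell) and ‘93-114’ in grey. Unigene30273_All stands up only at 24 h, in both clones, and Unigene2081_All falls from 1 h to 24 h in ‘Reken501’ (1538 to 565) but not in ‘93-114’ (322 to 642).

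The largest part of the raised unigenes were at about the same level at control and after 1 h. The control library was not used for the calls, and its level was set beside those of both cold libraries. For 2255 raised unigenes (46.8%, 95% Wilson interval 45.4 to 48.2), the control lay within 2-fold of the 1 h level and not of the 24 h level, so that the change came between 1 h and 24 h. Their median levels were 0.660, 0.607 and 2.87 fragments per M at control, 1 h and 24 h. A further 790 (16.4%) were over 2-fold below the 1 h level at control, with medians of 0.0471, 0.327 and 2.22, and thus rose in steps. For 1335 raised unigenes (27.7%) the 1 h level was at least 2-fold below the control. They comprised 621 (12.9%) with a control within 2-fold of the 24 h level alone, with medians of 2.40, 0.747 and 2.92, 701 (14.6%) with a control between the cold levels and over 2-fold from both, with medians of 0.330, 0.0467 and 1.30, and 13 with a control over 2-fold above the 24 h level. The 1 h library enters both the calls and the positions, so these shares are descriptions.

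For the lowered unigenes the same position was the most frequent. In 1475 of them (55.2%, 53.3 to 57.1) the control was within 2-fold of the 1 h level only, with medians of 4.57, 4.34 and 1.48 fragments per M. In 622 (23.3%) it was within 2-fold of both levels. In 349 (13.1%) it was within 2-fold of the 24 h level only, with medians of 1.46, 4.01 and 1.30, so that the 1 h level stood out as a peak. Beyond either level by over 2-fold were 56 unigenes on the 1 h side and 33 on the 24 h side. Read by order alone, the control lay between the cold levels for 2683 raised (55.7%) and 1719 lowered (64.3%) unigenes, and 331 raised and 3 lowered ones could not be ordered, because the control and the lower of the cold libraries were both at 0.

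**Figure D3:**
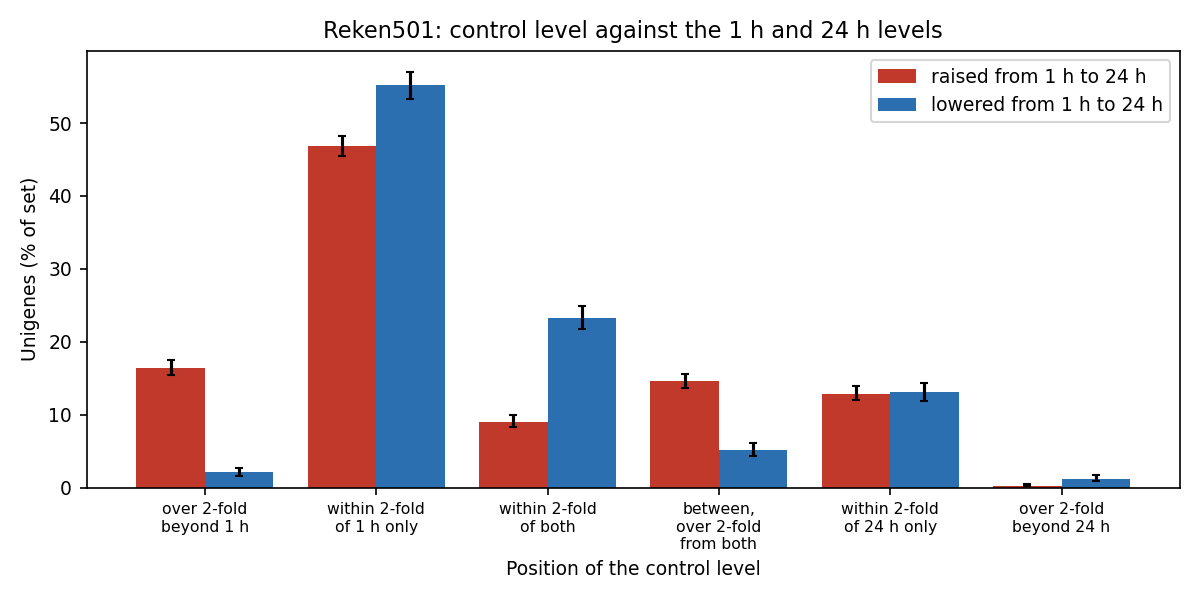
Position of the control level of raised (red) and lowered (blue) unigenes relative to the 1 h and 24 h levels in ‘Reken501’, in % of each set, with 95% Wilson intervals that treat unigenes as independent. The bars are highest where the control was within 2-fold of the 1 h level only, at 46.8% and 55.2%.

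Clone ‘93-114’ gave a readout of the same interval that shares no library with the calls in ‘Reken501’. In it 3677 unigenes were raised and 1439 lowered from 1 h to 24 h, or 2.33% and 0.912% of the 157712 tested and 3.24% in either direction. Of the 4816 unigenes raised in ‘Reken501’, 1394 (28.9%, 27.7 to 30.2) were also raised in ‘93-114’, and 35 (0.727%) were lowered there. These 1394 were 37.9% of the list of ‘93-114’. Of the 2673 lowered in ‘Reken501’, 256 (9.58%, 8.52 to 10.8) were also lowered and 41 (1.53%) were raised, and the 256 were 17.8% of the list of ‘93-114’. The rises were thus shared more often than the falls, against a background that is also higher for rises. Both clones called 1726 unigenes, of which 1650 (95.6%) went the same way.

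Called there or not, most of the raised unigenes moved upward in ‘93-114’. The values below include the unigenes also called in that clone. The median log2 ratio of 24 h to 1 h there was 1.16 (quartiles 0.23 and 2.37) for the unigenes raised in ‘Reken501’, and 3860 of the 4742 that could be measured (81.4%) were above 0. For the lowered unigenes it was -0.49 (quartiles -0.98 and -0.01), and 1949 of 2591 (75.2%) were below 0. Unigenes not called in ‘Reken501’ had a median of -0.04, with 50.8% below 0. A unigene with equal counts in both cold libraries of ‘93-114’ is counted as below 0, because its 24 h library was larger. Across 69066 unigenes that averaged 10 fragments or more in each pair of libraries, Spearman's rho between the ratios of the clones was 0.306 and Pearson's r was 0.451. These are descriptions across unigenes, which are no independent replicates and share the assembly.

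**Figure D4:**
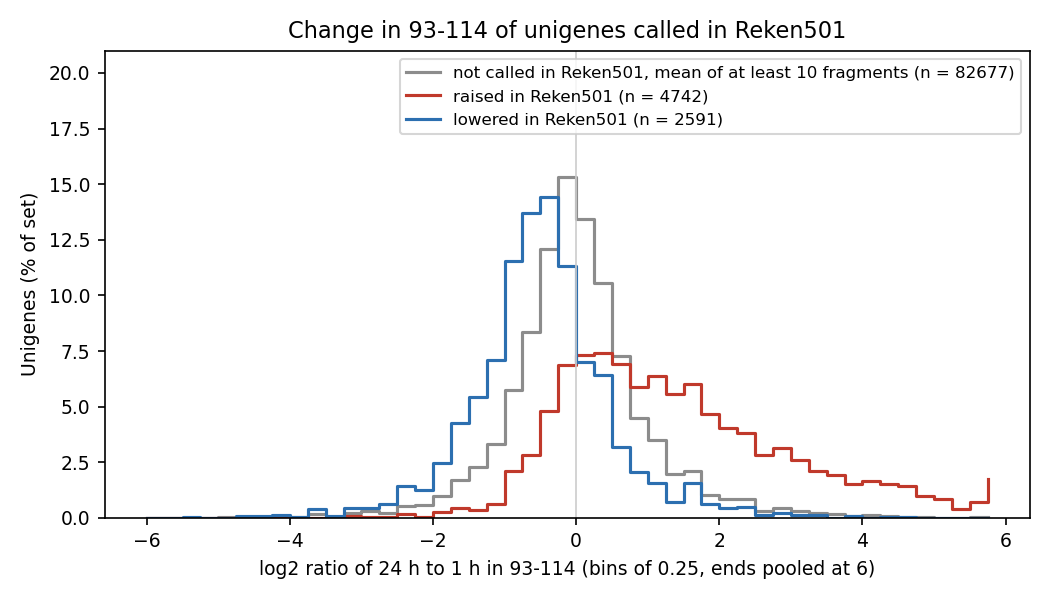
Distribution of the log2 ratio of 24 h to 1 h in ‘93-114’ for unigenes raised (red), lowered (blue) and not called (grey, mean of at least 10 fragments) in ‘Reken501’, in % of each set per bin of 0.25. The red curve has a long tail to the right (median 1.16), and the blue curve is shifted a little to the left (median -0.49).

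Large rises were more often also called in ‘93-114’ than small ones. With a log2 ratio from 1 to 2 in ‘Reken501’, 345 of 1764 raised unigenes (19.6%) were also raised in ‘93-114’, and with at least 4, 355 of 954 (37.2%). The median log2 ratio in ‘93-114’ was 0.47 for the former and 2.66 for the latter. Of the lowered unigenes, 189 of 1951 (9.69%) were also lowered when the log2 ratio was from 1 to 2 in size, and 11 of 252 (4.37%) when it was at least 3. The depth in ‘93-114’ limits the comparison of the falls, since the unigenes of these large falls had a median of 5 and 4 fragments in its cold libraries. Where those libraries averaged at least 10 fragments, 14.1% of 71 falls of at least 3 were also lowered, against 12.0% of 2040 smaller ones. The lower share of large falls was thus not seen at that depth. For rises of at least 3 it was 59.2% of 1010, against 27.3% of 2811 smaller ones.

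The shared share was above that of all unigenes in each class of abundance from 10 to 10000 fragments. From 10 to 30 fragments, 25.5% of the raised unigenes were also raised in ‘93-114’, against 2.45% of all unigenes of the class. From 1000 to 10000 fragments it was 45 of 89 raised unigenes (50.6%), against 3.40%. For the lowered unigenes the shares ran from 3.88% of 464 (10 to 30 fragments), against 0.772% of the class, to 16.1% of 230 (300 to 1000 fragments), against 1.55%. At 10000 fragments and above, 3 of 11 raised and 0 of 4 lowered unigenes were shared, which is too few to place.

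The unigenes with 0 fragments at 1 h were called in ‘93-114’ about as often as all raised unigenes. Summed over the 634, there were 1266, 0 and 16596 fragments at control, 1 h and 24 h in ‘Reken501’, and 2169, 2571 and 13668 in ‘93-114’. The ratio in ‘93-114’ was above 0 for 534 of them and below 0 for 72, and 174 (27.4%) were called raised and 0 lowered, against 28.9% of all raised unigenes called raised. Depth limits this comparison, since the 634 had a median of 2 and 12 fragments in the cold libraries of ‘93-114’. Their median log2 ratio there was 2.46, against 1.16 for all raised unigenes. Since they were picked for a count of 0 at 1 h, the low sum at that time in ‘Reken501’ is no finding, whereas the sums of ‘93-114’ were not used. Of all raised unigenes, 61 were close to particular to the ‘Reken501’ library at 24 h, with at most 2 fragments in each of the other 5 libraries, and 15 of these had 0 in all 5. They had from 15 to 195 fragments at 24 h and added up to 1687. Only 7 lowered unigenes had at most 2 fragments outside the 1 h library of ‘Reken501’.

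The position of the control in ‘Reken501’ went along with the readout of ‘93-114’. Of the 790 raised unigenes that rose in steps, 423 (53.5%) were also raised in ‘93-114’ over the same interval and 0 were lowered. Of the 2255 that rose only after 1 h, 684 (30.3%) were also raised. Of the 621 that had fallen at 1 h and returned, 86 (13.8%) were also raised and 16 (2.58%) were lowered. These groups also differed in level and in the size of the rise, which were not separated from the control's position. The 790 had medians of 0.0471, 0.327 and 2.22 fragments per M, few fragments at control, and the 621 had 2.40, 0.747 and 2.92. In ‘93-114’ the median log2 ratio of 1 h to control of these 621 was -0.69 relative to the totals, -0.0044 with TMM factors and 0.0086 with DESeq2's size factors, so no fall at 1 h was seen there beyond that of all unigenes. Their median ratio of 24 h to 1 h in ‘93-114’ was 0.25. Among the lowered unigenes, 185 of the 1475 whose control was like 1 h (12.5%) were also lowered, against 25 of the 349 with a peak at 1 h (7.16%).

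**Figure D5:**
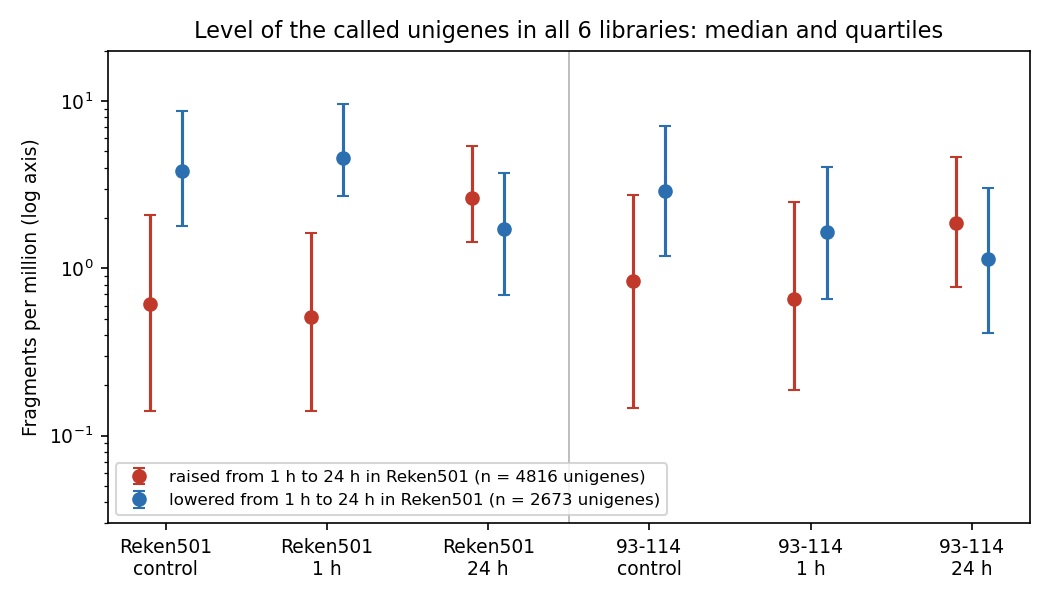
Level in each of the 6 libraries of the unigenes raised (red) and lowered (blue) from 1 h to 24 h in ‘Reken501’, in fragments per M on a log axis, with points for the median and bars for the quartiles over unigenes. From control to 1 h and 24 h, the red median runs 0.613, 0.513 and 2.64 (‘Reken501’), then 0.835, 0.659 and 1.87 (‘93-114’). The blue median runs 3.82, 4.57 and 1.71, then 2.90, 1.65 and 1.14. With TMM or DESeq2 scaling, the first step in ‘93-114’ shrinks for the blue median and turns into a rise for the red one.

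In ‘Reken501’, 796 of the lowered unigenes (29.8%) were already below their control level at 1 h, 56 of them by over 2-fold. The median of all 2673 was 3.82, 4.57 and 1.71 fragments per M at control, 1 h and 24 h. By this median, the set fell after 1 h and not before. The set was called for a fall from 1 h to 24 h, which favours high counts at 1 h. The median in clone ‘93-114’ was 2.90, 1.65 and 1.14, but the first of these steps depended on the scaling. Relative to the totals, the median log2 ratio of 1 h to control there was -0.87 for the lowered unigenes and -0.68 for all 90162 unigenes with a mean of 10 fragments over the 6 libraries. With TMM factors these were -0.19 and 0.00114, and with DESeq2's size factors -0.17 and 0.014, and the step from 1 h to 24 h, at -0.54 and -0.49 for the lowered unigenes, was then the larger one. For the raised unigenes the medians were 0.613, 0.513 and 2.64 in ‘Reken501’, beside 0.835, 0.659 and 1.87 in clone ‘93-114’. In ‘Reken501’ the larger step was between 1 h and 24 h, which follows from how the set was chosen. It was also the larger step in ‘93-114’, whose libraries were not used for the calls. The first step in ‘93-114’ again depended on the scaling: its median log2 ratio was -0.06 relative to the totals, 0.62 with TMM factors and 0.63 with DESeq2's. With those factors the raised unigenes thus rose by 1 h there, and the step to 24 h was 1.11 and 1.17. The levels in ‘Reken501’ at 1 h and 24 h were those used for the calls and are given as a description. No test of a difference between the clones was possible with 1 library per condition.

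The fragments on the most-read unigenes were nearly the same at both times. The 100 unigenes with the highest mean, from 19883 to 716604 fragments, held 34.9% of the 1 h library and 35.8% of the 24 h library. Of these, 61 had a log2 ratio above 0 and 39 below, from -1.45 to 1.57, and 5 were raised and 1 was lowered. The number of unigenes that held 50% of the fragments went from 525 at 1 h to 445 at 24 h.

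In most clusters with a call, a single contig was called. At least 1 contig was called in 2125 of 16083 clusters, exactly 1 in 1690 and at least 2 in 435. In 273 of the latter all called contigs were raised, in 134 all were lowered, and in 28 some were raised and others lowered. Reads of similar contigs can be split between them by the counting, so contigs of a cluster are not independent. With the fragments summed per cluster, 3608 of 110109 clusters and stand-alone unigenes were raised and 2011 lowered, so that 64.2% of the calls were rises.

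The 28 clusters with contigs in both directions rest on the threshold, since 5 were left at a log2 ratio of 2, and 1 and 0 with coefficients of variation of 0.2 and 0.4. In 23 of the 28 the sum was not called, in 5 it was raised, and in 16 the log2 ratio of the sum was under 0.5 in size. Of the fragments on called contigs, the raised contigs held a median of 27.3% in the control, 11.4% at 1 h and 68.1% at 24 h. The values at 1 h and 24 h were those that chose the contigs. In the cold libraries of ‘93-114’, which were not used for that choice, the share on the same contigs could be measured with at least 10 fragments for 26 clusters. It was higher at 24 h than at 1 h in 21 of them, with a median of 44.0% at 1 h and 68.1% at 24 h. The cluster of CL3590.Contig2_All is one of the 5 with a raised sum, and it could not be followed in ‘93-114’ for lack of fragments.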

How the data were processed

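RNA of pooled leaves was sequenced by the authors, 1 library per condition, and adapter and low-quality reads were removed. The authors' tables hold the count of fragments per unigene, not normalized, and an FPKM that equals the count per kilobase and per M fragments to within 5.0e-05. The assembly and counting of unigenes are not given in the sources used here. Deposited fold changes, p-values and false discovery rates are the authors' own comparisons and were not used.

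Counts were joined by unigene ID after checking that shared columns and totals were equal, with a unigene absent from a table set to 0. Binomial tests, intervals and figures used Python 3.11.15, numpy 2.4.6, pandas 2.3.3, scipy 1.17.1 and matplotlib 3.10.9. Alternatives used R 4.3.3, edgeR 4.0.16 and DESeq2 1.42.0. With 1 library a side no p-value of single unigenes is printed. The calling was tested on simulated data, where it missed 4-fold falls of rare unigenes and called unchanged unigenes once a spread between pools was added. Members, rules and tests were chosen with earlier results of these data known. The unigenes named are, in each direction, the called one with the largest log2 ratio and the one with the largest change in fragments per M, given at least 500 fragments in the higher library and 10 in the lower.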

Additional observations from a re-analysis of the deposited data

Results flagged for a closer look

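Unigenes that went in opposite directions in the clones between 1 h and 24 h are given here, and the difference between the clones was not tested, because each condition has 1 library. Unigene2081_All had a log2 ratio of -1.45 in ‘Reken501’ and of 1.00 in ‘93-114’, where it was not called. Of the unigenes called in both clones, 76 went in opposite directions, 35 raised in ‘Reken501’ and 41 lowered. The 35 were 0.727% of the unigenes raised in ‘Reken501’, beside 0.912% lowered among all those tested in ‘93-114’. The 41 were 1.53% of the unigenes lowered in ‘Reken501’, beside 2.33% raised among all. Opposite calls were thus no more frequent than over all unigenes. The 35 had a median of 91, 42 and 113 fragments at control, 1 h and 24 h in ‘Reken501’ and of 87, 174 and 79 in ‘93-114’. The 41 had medians of 105, 188 and 56 in ‘Reken501’ and of 110, 39 and 140 in ‘93-114’. Both sets were chosen for opposite changes between the cold libraries, which sets those libraries apart.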

How the results depend on the processing

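No paired analysis was possible because each condition has 1 library, and no replicate could be left out. The cause of the differences below was not tested. An adjusted p of 0.05 gave 11798 raised and 6593 lowered unigenes, a log2 ratio of 2 gave 3052 and 722, edgeR's exact test with a coefficient of variation of 0.2 gave 1091 and 187, and with 0.4 it gave 34 and 13. The share raised was 63.0% with TMM factors, 62.1% with DESeq2's size factors, 66.7% with totals without the 100 most-read unigenes, 62.7% when a mean of 10 fragments was asked, 80.9% at a log2 ratio of 2, and 85.4% and 72.3% with coefficients of variation of 0.2 and 0.4. It stayed above 50% in every alternative run.

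The median log2 ratio was -0.024 with TMM factors, -0.033 with DESeq2's factors, 0.014 without the 100 most-read unigenes, 0.040 with a mean of at least 1 fragment and -0.11 with at least 100. The share of raised unigenes also raised in ‘93-114’ was 26.1% at an adjusted p of 0.05, 27.6% at a log2 ratio of 2 asked in both clones and 17.6% with a coefficient of variation of 0.4. For lowered unigenes it was 3.60% at a log2 ratio of 2 and 3.74% and 0% with coefficients of variation of 0.2 and 0.4. Clusters with contigs in both directions numbered 147 at an adjusted p of 0.05, 5 at a log2 ratio of 2, and 1 and 0 with coefficients of variation of 0.2 and 0.4.

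With TMM factors, DESeq2's factors and totals without the 100 most-read unigenes, the control lay between the cold levels for 51.0%, 51.1% and 52.0% of raised and 67.5%, 67.2% and 67.0% of lowered unigenes. It was within 2-fold of 1 h only for 50.6%, 51.1% and 51.4% of lowered unigenes, and for 48.4% and 48.5% of raised ones with TMM and DESeq2's factors, in alternatives chosen after seeing the data. The log2 ratios of the 4 named unigenes kept their direction and call under the 3 scalings and with 5 fragments added. The median log2 ratio of 1 h to control in ‘93-114’ of the raised unigenes was -0.06 relative to the totals and 0.62, 0.63 and 0.27 with the 3 scalings, and that of the 621 raised unigenes near the 24 h level at control turned from -0.69 to 0.0086 with DESeq2's factors, also chosen after seeing the data.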
